A study of Sus scrofa with 35 samples.

Results

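The genes described here code for the protein subunits of the cytosolic ribosome. They were taken by name: every non-control probe whose gene name in the scanner files starts with RPL or RPS and a digit, or is RPSA, RPLP0, RPLP1 or RPLP2, leaving out the S6 kinases. The names covered 284 of 60305 probes and 83 of 46723 gene names, where a probe without a symbol is named by its accession. Each gene was read by its brightest probe, and 81 were measured, meaning that in some group 75% or more of the arrays read the probe well above background. RPL13 and the probe named RPS4X did not reach this level. Of the 81, 36 code for proteins of the large subunit, 29 for proteins of the small subunit and 3 for the stalk (RPLP0, RPLP1 and RPLP2). A further 6 carry the names of paralogs, 6 carry pseudogene names, and RPS19BP1 is not a subunit but a protein that binds RPS19.

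RNA came from the longissimus dorsi, a muscle of the back, of castrated male pigs that were Creole, Large White (LW) or F1, the cross of both. Thermoneutral (TN) pigs were labelled 24 °C and heat-stressed (HS) pigs 30 °C, whereas the growth protocol gives 32 °C for 5 days. Each group had 6 arrays of 1 pig each, except F1 HS with 5. Per the study methods, pigs entered a climatic room at 11 weeks of age in pens of 3 and came from 3 litters per breed. HS pigs were slaughtered after TN pigs and from other pens, and the study reported that they ate less under heat. Temperature, age, slaughter day, pen and feed intake therefore cannot be told apart. The labels pair no samples, and replicate numbers follow accession order. On the 35 arrays, 58.4% to 75.9% of probes were well above background, and all 13 skeletal muscle markers were measured. In a piece of muscle, fewer cells of a type and less RNA per cell cannot be told apart.

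Ribosomes read messenger RNA and join amino acids into protein. Their proteins are built in near-equal numbers around ribosomal RNA, and the mRNAs of these proteins carry a terminal oligopyrimidine (TOP) start through which mTOR signalling controls their translation. Skeletal muscle holds most of the body's protein, and its ribosome content is known to follow growth and disuse.

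The probes of 60 bases show what the arrays could tell apart. The following sequences, written 5′ to 3′ as in the scanner files, belong to the brightest probes of genes on which the results turn. RPS20 was among the clearest increases, RPL13AP3 was the member called lower, RPS6 varied widely among Creole pigs, and RPL3 and RPL3L had the highest differences of the 81.
RPS20: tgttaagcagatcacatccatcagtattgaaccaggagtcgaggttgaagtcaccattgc
RPL13AP3: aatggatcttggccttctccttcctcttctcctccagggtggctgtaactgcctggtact
RPS6: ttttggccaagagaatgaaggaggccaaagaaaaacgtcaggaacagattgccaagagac
RPL3: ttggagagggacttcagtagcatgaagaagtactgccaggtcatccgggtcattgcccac
RPL3L: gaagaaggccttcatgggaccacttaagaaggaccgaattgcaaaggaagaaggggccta

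The probes named RPL3 and RPL3L shared no run over 7 bases, but this does not show that they read different genes. Some other names could not be separated. In the lines below, capitals mark bases shared with a probe of another name, which is RPL10 for RPL10L and RPS10 for RPS10P5, or, for RPS2P32 and RPS2, bases that are complementary between both probes.
RPL10L: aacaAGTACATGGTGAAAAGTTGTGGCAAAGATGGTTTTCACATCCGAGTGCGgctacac
RPS10P5: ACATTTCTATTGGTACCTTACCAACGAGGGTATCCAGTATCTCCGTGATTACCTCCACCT
RPS2P32: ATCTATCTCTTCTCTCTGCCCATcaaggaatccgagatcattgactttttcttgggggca
RPS2: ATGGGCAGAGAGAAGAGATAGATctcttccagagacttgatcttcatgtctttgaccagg

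The run in RPL10L was 49 bases, and all 60 bases of RPS10P5 were those of an RPS10 probe, so neither name has a signal of its own. The labelled cRNA is complementary to mRNA, so of RPS2P32 and RPS2 only 1 can carry the strand that binds it. The HS minus TN difference was 0.02 on the log2 scale for RPS2P32 and -0.14 for RPS2, and neither was called. In all, the brightest probes of 14 members shared at least 30 bases with a probe of another name, and those of 5 had at least 20 bases complementary to another probe. The strand of the other probes was not tested.

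Ribosomal protein genes were mostly higher in HS than in TN muscle by a small amount. With breed in the model, 39 of the 81 members rose and 1 read lower, RPL13AP3, by a probe whose strand was not tested (limma, Benjamini-Hochberg adjusted p under 0.05 over all measured probes). That was 48.1% of members called higher, against 7.73% of all 41517 measured probes; 8.3% of all probes were called lower and 16% in either direction. The median difference was 0.14 on the log2 scale over the 81 members and -0.02 over all probes, and 73 of 81 differences were above 0. The 39 increases ran from 0.10 to 0.45 on the log2 scale, or 7.54% to 37.1% with a median of 13.8%, and 36 of them were under 0.3. Their number depended on how arrays were brought to 1 scale: it was 39 after quantile normalisation, but 23, 20 and 3 after scaling by the median, the spike-in controls and the 75th percentile, and 2 from the scanner's processed signal. The median of the members stayed above that of all probes in these settings, by 0.08 to 0.16. The share of all probes called in these alternatives was not counted. Fewer members called there cannot be told from fewer calls over all probes.

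**Figure D1:**
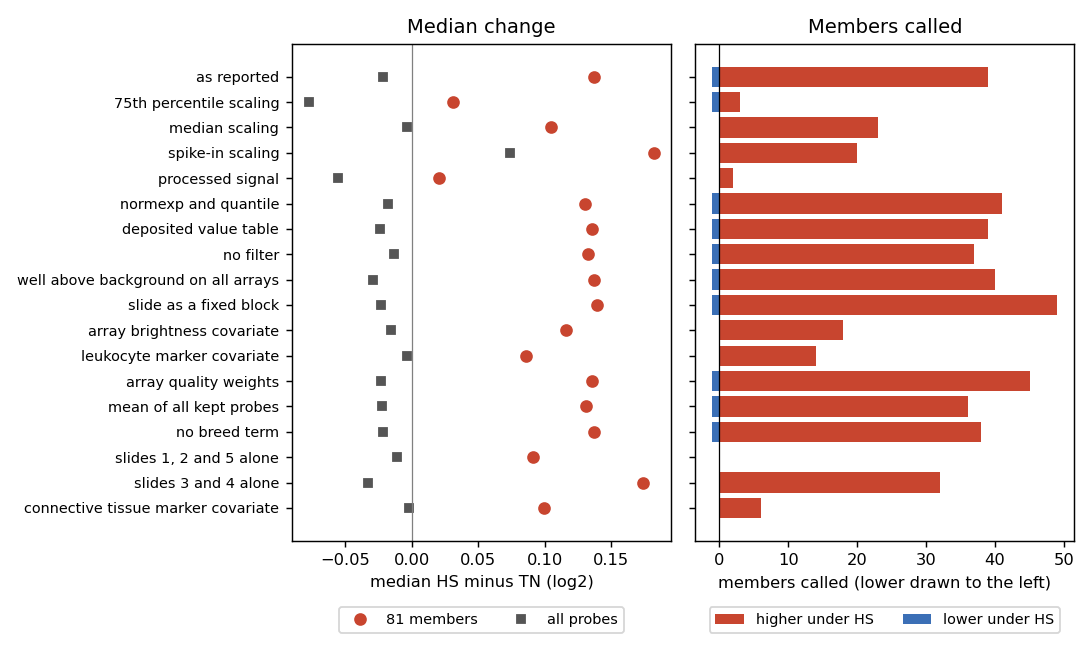
Median HS minus TN difference (log2, left) of the 81 members and of all probes, and members called higher or lower (right), for the reported analysis and its alternatives. The members' median lies to the right of that of all probes in every line, whereas the number called runs from 0 on slides 1, 2 and 5 alone to 50 with slide as a block. The share of all probes called is not drawn.

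Among large-subunit genes 22 of 36 rose and none fell, with a median difference of 0.14. RPL11, which with RPL5 and 5S ribosomal RNA forms a particle that can bind MDM2, had the smallest p. Its normalised log2 intensity was 16.84 to 17.23 in TN arrays (median 17.02) and 17.08 to 17.38 in HS arrays (median 17.28). The difference was 0.23 (SE 0.035, limma adjusted p = 0.000118), and all 17 HS arrays were above the TN mean of their breed.

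RPL13A, also known from a complex that silences translation in inflammation, read 14.64 to 15.45 in TN (median 15.13) and 15.21 to 15.74 in HS (median 15.48). The F1 HS arrays read 15.63, 15.43, 15.65, 15.42 and 15.48, so HS arrays lay in the upper part of the TN range or above it. It was 1.30-fold higher in HS (log2 0.38, SE 0.061, limma adjusted p = 0.000171) and was called in 16 of 17 alternatives. RPL19 rose by 0.20, RPL6 by 0.25, RPL23 by 0.21, RPL35 by 0.16 and RPL27A by 0.24, with limma adjusted p from 0.0011 to 0.0023. Of these, RPL19 and RPL35 were above the breed's TN mean on 17 of 17 HS arrays.

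RPL5 read 17.07 to 17.61 in TN (median 17.32) and 17.36 to 17.76 in HS (median 17.55), and rose by 0.21 (limma adjusted p = 0.00334). Other large-subunit genes that rose included RPL7, RPL10, RPL14, RPL15, RPL18, RPL22, RPL30, RPL31, RPL32, RPL34, RPL36A and RPL38, by 0.11 (RPL10) to 0.22 (RPL14). Of the 14 that did not pass the test, RPL17, RPL26 and RPL37 were below 0, at -0.14, -0.09 and -0.14, and the rest ran from 0.06 (RPL29) to 0.18 (RPL28). The RPL26 probe had 41 bases complementary to a brighter probe named MT-2B, which was called higher (0.18, limma adjusted p = 0.0077). Whether the RPL26 probe carries the strand that binds labelled cRNA was not tested, so its value may not be that of RPL26 mRNA.

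Of the small-subunit genes, 14 of 29 rose and none fell, again with a median of 0.14. RPS20 read 17.88 to 18.34 in TN (median 18.03) and 18.03 to 18.58 in HS (median 18.33), a difference of 0.27 (SE 0.047, limma adjusted p = 0.000271) seen on 16 of 17 HS arrays. The gene the files name RPS4 rose by 0.20 (limma adjusted p = 0.00226). By accession, 14 of its probes are RPS4X in RefSeq.

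RPS27A, which is made as a fusion with ubiquitin, read 16.40 to 16.86 in TN (median 16.63) and 16.63 to 16.95 in HS (median 16.87), and rose by 0.18 (limma adjusted p = 0.00456). Other small-subunit genes that rose included RPS3, RPS3A, RPS12, RPS13, RPS21, RPS24, RPS26, RPS28 and RPS29, by 0.10 (RPS28) to 0.20 (RPS12). RPS2 and RPS19 were both at -0.14 and were not called. The RPS2 probe (mean log2 intensity 9.20) had 23 bases complementary to the brighter RPS2P32 probe (16.82), so its value may not be that of RPS2 mRNA.

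RPS6, the subunit that S6 kinases phosphorylate, differed by 0.03 (SE 0.125, limma adjusted p = 0.892). Its brightest probe ranged from 15.22 to 16.95 in Creole TN and from 15.45 to 17.02 in Creole HS, whereas F1 and LW arrays lay between 16.28 and 17.02. The other RPS6 probe held Creole arrays within 16.27 to 16.57, so the spread belonged to 1 probe. RPSA, also known as a laminin receptor, differed by 0.17 (limma adjusted p = 0.0835). The stalk genes, whose products recruit elongation factors, did not pass the test: RPLP0 differed by 0.09, RPLP1 by 0.06 and RPLP2 by 0.16, with limma adjusted p of 0.385, 0.128 and 0.081.

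**Figure D2:**
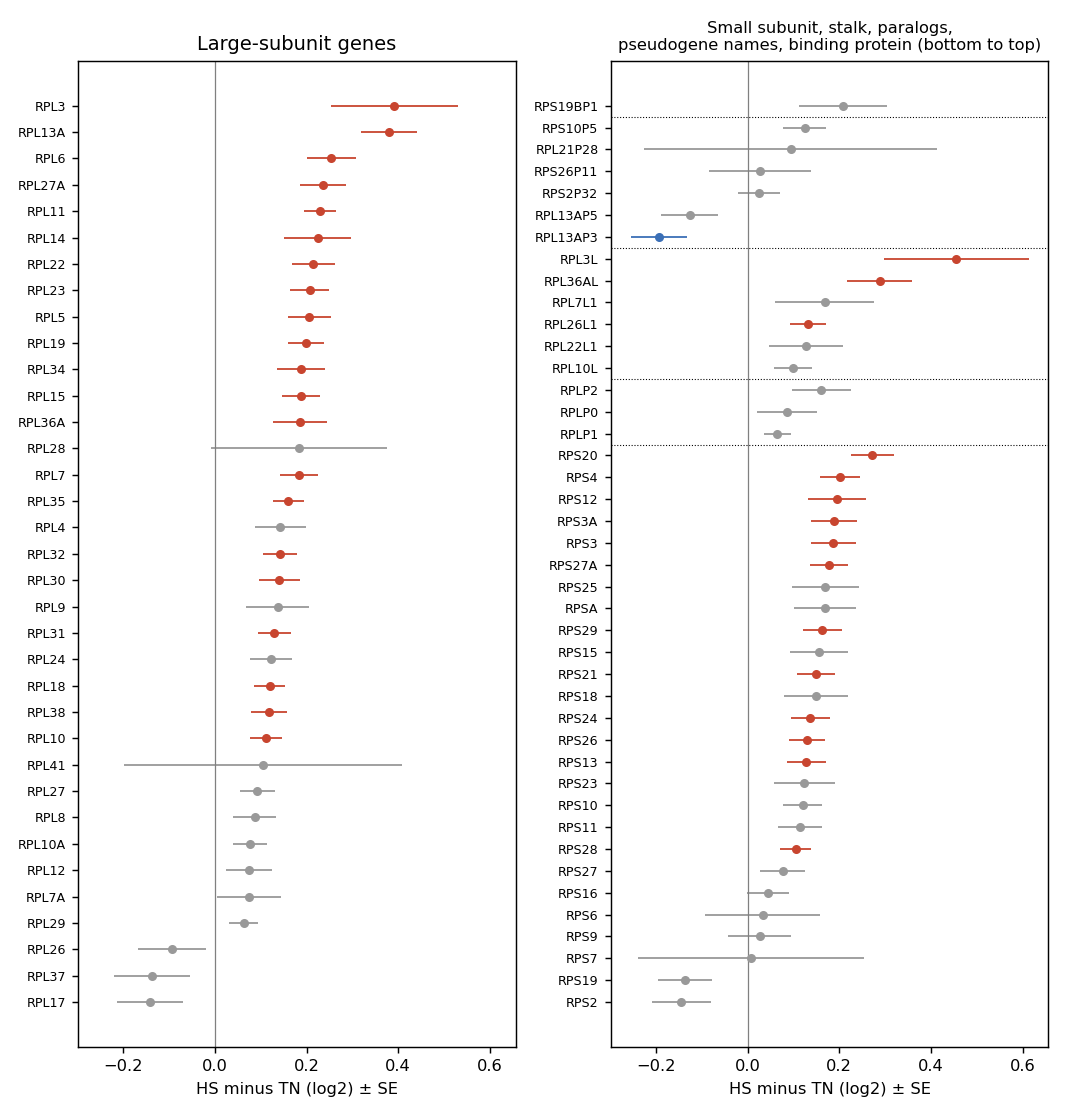
HS minus TN difference (log2, with its SE) of 77 measured members, with large-subunit genes on the left and the other classes on the right. Red points were called higher and the blue point, RPL13AP3, lower; most grey points also lie to the right of 0.

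The highest difference was in the probe named RPL3L, the symbol of the striated-muscle counterpart of RPL3. Whether this probe reads RPL3L or RPL3 was not tested, so its difference may be that of RPL3 mRNA. The probes named RPL3L and RPL3 count as separate members, but may read 1 gene. It read 13.83 to 15.63 in TN (median 14.74) and 14.58 to 16.12 in HS (median 15.03). F1 HS arrays were at 14.90, 15.35, 15.35, 15.24 and 14.62. The groups overlapped widely. The probe named RPL3L rose by 0.45 (SE 0.158, limma adjusted p = 0.0453) and that named RPL3 by 0.39 (SE 0.138, limma adjusted p = 0.0488). Both were near the threshold, were called in 15 and 10 of the 35 runs that left out 1 array, and were at -0.03 and -0.02 with the leukocyte marker level in the model.

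The probes named RPL3 and RPL3L moved together from array to array. Whether they read different genes or the same transcript was not tested, so neither r nor p shows that paralogs vary together. Across 35 arrays Pearson's r was 0.97 and Spearman's rho 0.97 (permutation p = 1e-05 for each, the smallest that 100000 permutations can give; 4.21e-05 adjusted over the 80 relations of RPL3L computed), a pair chosen after its values were seen. Without the 2 arrays farthest from the median, r was also 0.97. It was 0.97 within TN, 0.97 within HS, 0.97 on slides 1, 2 and 5 and 0.98 on slides 3 and 4. RPS19BP1 and RPS12 were next in likeness to the probe named RPL3L, each with r of 0.89. Other members followed closely, such as RPLP2 (0.88), RPS3 (0.86) and RPS20 (0.84), while RPS19 was at -0.74.

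RPL36AL, a paralog of RPL36A, rose by 0.29 and RPL26L1, a paralog of RPL26, by 0.13 (limma adjusted p 0.00596 and 0.0199). RPL7L1, RPL10L and RPL22L1 differed by 0.17, 0.10 and 0.13 and RPS19BP1 by 0.21, and none of them was called. No probe was named RPL39L, RPS27L or RPS4Y1. The only member called lower, RPL13AP3, read 8.97 to 9.63 in TN (median 9.44) and 8.80 to 9.49 in HS (median 9.21). Its signal fell by 0.19 (SE 0.061, limma adjusted p = 0.0292), and 1 of 17 HS arrays was above the TN mean of its breed. Whether this probe carries the strand that binds labelled cRNA was not tested, so the fall may not be that of an mRNA.

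The increases lay among bright probes. At a mean log2 intensity above 14, a limit chosen after the values were seen, 38 of 59 members (64.4%) were called higher, against 186 of 1838 other probes of that brightness. At 14 or below, 1 of 22 members was called higher (RPL3) and 1 lower (RPL13AP3, strand not tested), and 7.26% of other probes were called higher. The 8 members with a difference below 0 were all read by a single kept probe. Among 44 members with several kept probes, the brightest was above 0 in all 44 and every probe was above 0 in 36. Counted by probe, 162 of 275 were called higher and 2 lower.

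Probes of 1 gene mostly moved alike. RPL5, the partner of RPL11, had 19 of 19 probes called higher (0.17 to 0.25), and RPS20 had 7 of 7 (0.24 to 0.30). Called genes with disagreeing probes were RPL6, whose 15 probes ran from -0.24 to 0.25, and RPL11, RPL18 and RPL23, which each had 1 probe below 0. The RPL23 probe was itself called lower (-0.21, limma adjusted p = 0.044).

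**Figure D3:**
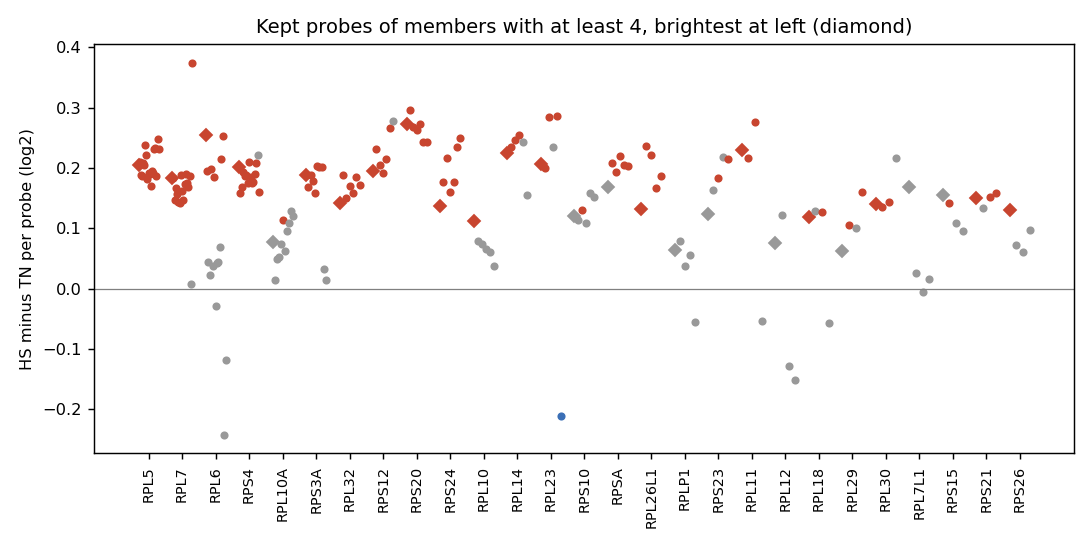
HS minus TN difference (log2) of 196 kept probes of 27 members with at least 4 each, with the brightest probe of each gene at the left as a diamond. Red probes were called higher and blue ones lower; RPL5 is red throughout, while RPL6 has probes on both sides of 0.

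The level of the whole group was followed array by array as the mean deviation of the 81 members from their own averages. It was -0.22 to 0.09 in TN (mean -0.06 ± 0.07 SD, n = 18) and -0.12 to 0.18 in HS (mean 0.06 ± 0.08 SD, n = 17). Creole arrays did not overlap, at -0.10 to -0.04 in TN and 0.05 to 0.18 in HS. F1 ran from -0.12 to 0.09 and from -0.03 to 0.15, and LW from -0.22 to 0.04 and from -0.12 to 0.15, so both overlapped.

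**Figure D4:**
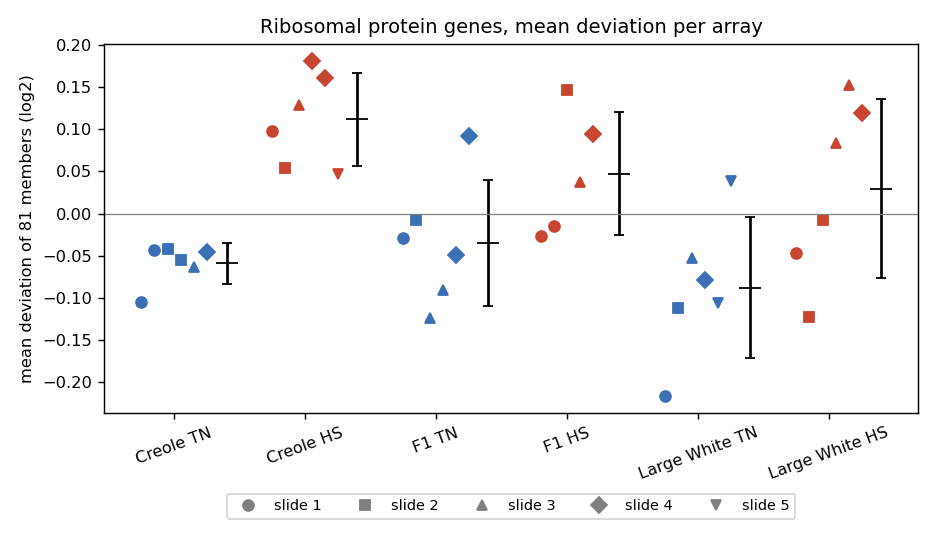
Mean deviation (log2) of the 81 members on each array by group, with the array's slide as the symbol and the group mean ± SD in black. Creole HS arrays all lie above Creole TN arrays, whereas F1 and Large White groups overlap.

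Arrays were hybridised on 5 slides. The mean of the members was higher in HS than in TN within slides 1 to 4, which held 4 arrays of each, by 0.10, 0.07, 0.18 and 0.16. On the 19 arrays of slides 1, 2 and 5 alone no member was called and the median was 0.09. On the 16 arrays of slides 3 and 4, 32 were called and the median was 0.17. The shares of all probes called on these sets of slides were not counted. All 39 increased genes were above 0 on both sets of slides, and all 39 were called with slide as a block. RPS7, RPL41, RPL28 and RPL21P28 read higher on every array of slides 3 and 4 than on any other, as did 1.07% of all probes. With the slide in the model their temperature differences ran from -0.02 to 0.15 and none was called.

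Markers of other cell types moved with temperature too. Of 15 measured leukocyte markers 5 rose and 13 differences were above 0, and their mean level was -1.37 to 0.71 in TN and -0.31 to 1.06 in HS. Of 14 connective tissue markers 6 rose and 14 were above 0, at -1.26 to 0.22 in TN and -0.26 to 0.51 in HS. Of 13 muscle markers 2 fell and 12 differences were below 0, at -0.13 to 0.25 in TN and -0.35 to 0.05 in HS; 12 fell with 75th percentile scaling, 11 in the processed signal and 6 with median scaling. Blood cell markers had a mean level of 0.20 in TN and -0.22 in HS, and nerve markers of -0.11 and 0.12.

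HS arrays were also brighter, with a 75th percentile of the log2 intensity of 9.24 ± 0.24 (SD, n = 17) against 9.05 ± 0.17 (SD, n = 18) in TN. Of the members, 14 were called with the leukocyte level as a covariate, 6 with the connective tissue level and 18 with array brightness. The share of all probes called with each covariate was not counted. Fewer members called there cannot be told from fewer calls over all probes. The part of these cell types and of brightness in the increase was not tested.

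Within breeds the question was whether Creole, F1 and LW pigs each showed the change. In Creole 7 members rose and none fell, against 1.91% of all probes called: RPL11 by 0.29, RPS20 by 0.35, RPL13A by 0.44, RPL6 by 0.35, RPL22 by 0.31, and RPL15 and RPL23 (limma adjusted p 0.0236 to 0.0411 for those given with a value). In Creole, RPL11 read 16.84 to 17.17 in TN and 17.25 to 17.38 in HS, and RPL13A 15.07 to 15.33 and 15.51 to 15.74, without overlap. None was called in F1 or LW, where 0.00482% of all probes were called in each. An unadjusted limma p under 0.05 was found for 18 and 25 members, but the share of all probes at that level was not counted. Medians were 0.18 in Creole, 0.11 in F1 and 0.13 in LW, and 60 of 81 members were above 0 in all 3.

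All HS arrays lay above all TN arrays for 14 members in Creole (0.932% of all probes), for 2 in F1 (0.783%) and for 0 in LW (0.378%). The breeds were not shown to differ. The interaction called 0 members and 0% of probes (moderated F-test in limma, smallest adjusted p of a member 0.963), with 0 members at an unadjusted p under 0.05. The Creole count rested on single arrays, at 0 without Creole TN replicate 1, 1 without Creole HS replicate 1, Creole TN replicate 6 or Creole HS replicate 6, 2 without Creole TN replicate 5, Creole HS replicate 3 or Creole HS replicate 5, 3 without Creole HS replicate 4 and 4 without Creole TN replicate 4.

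**Figure D5:**
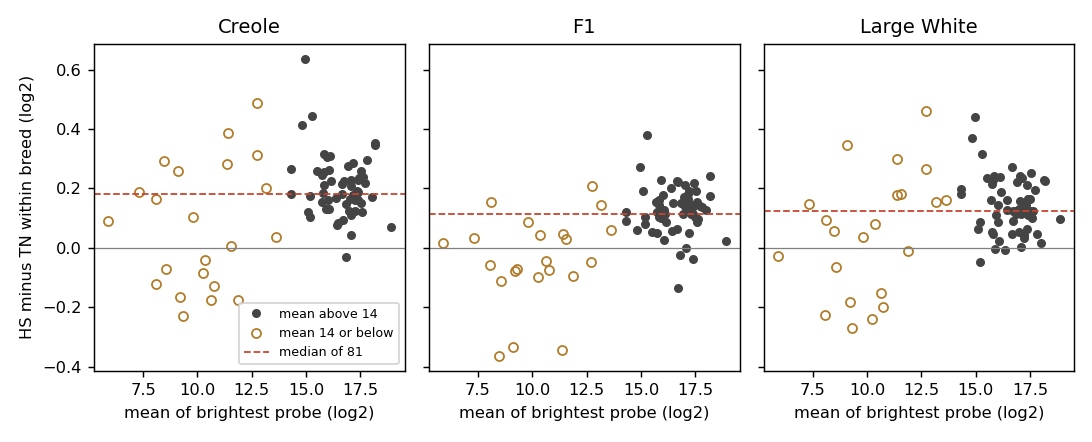
HS minus TN difference (log2) of each member within Creole, F1 and Large White against the mean log2 intensity of its brightest probe, with the median of the 81 as a dashed line. The medians are 0.18, 0.11 and 0.13, and values below 0 lie mostly among probes at 14 or below.

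No member was called between breeds. For Creole minus LW 0 were called, against 3.64% of all probes, while 66 of 81 differences were above 0, 12 had an unadjusted p under 0.05 and the smallest limma adjusted p was 0.0538, for RPS9. The median was 0.05 over the members and 0.01 over all probes. No member was called for F1 minus LW (0.525% of all probes), F1 minus Creole (0.477%) or F1 minus the parental midpoint (0.246%), with 5, 5 and 3 members at an unadjusted p under 0.05. Shares of all probes at an unadjusted limma p under 0.05 were not counted for these contrasts, nor for Creole minus LW.

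The other lists of the translation machinery differed in direction, and their counts depended on the scaling. So did the median of all probes, at -0.02 as reported, -0.08 with 75th percentile scaling, -0.06 in the processed signal and 0.07 with spike-in scaling. The share of all probes called was not counted in these settings. Of 16 other genes with TOP mRNAs 6 rose, such as BTF3 (0.24), and 2 fell (COX4I1 and HNRNPA1), with a median of 0.15 and 13 differences above 0. With 75th percentile scaling and in the processed signal 1 rose and 2 fell, with a median of 0.04 in both. Of 39 translation factors 3 rose, among them the elongation factors EEF1A1 (0.28) and EEF1B2 (0.17), and 6 fell, among them EIF4G1 and ABCE1. These counts were 0 and 11 with 75th percentile scaling, 0 and 10 in the processed signal, and 2 and 0 with spike-in scaling. The medians of the translation factors were -0.08, -0.08 and 0.08 there.

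Of 44 mitochondrial ribosomal proteins 0 rose and 7 fell, MRPL37 by 0.40 and MRPS25 by 0.33, with a median of -0.07. With 75th percentile scaling 11 fell, whereas with spike-in scaling 1 fell and the median was 0.04; it was below that of all probes in each scaling. Of 64 ribosome biogenesis genes 2 rose, TSR2 by 0.32 and NSA2 by 0.18, and 3 fell, among them BYSL and NAT10, and with 75th percentile scaling 1 rose and 7 fell. Of 17 mTORC1 and S6 kinase genes 0 rose and 4 fell, among them the mTOR subunit MLST8 and the translation repressor EIF4EBP1. None fell with spike-in scaling, where their median was 0.04 and that of all probes 0.07. Their median was below that of all probes in each scaling. Of 40 proteasome genes 0 were called, but 5 fell with 75th percentile scaling and 4 in the processed signal. With 75th percentile scaling the median of all probes was itself -0.08, beside -0.09 for proteasome and -0.08 for ribosome biogenesis genes. In the processed signal it was -0.06, beside -0.10 for proteasome genes. Over all 30407 gene names, 7.11% were called higher and 7.95% lower.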

How the data were processed

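Per the study methods, Cy3-labelled cRNA was hybridised to 1-colour Agilent porcine arrays. The deposited scanner files, made with Agilent Feature Extraction 10.10.1.1 per the file headers, hold intensity values on a linear scale and other values such as quality flags. The deposited table holds log2 values of 40649 probes, which the authors quantile-normalised and filtered, and served as an alternative. Median pixel intensity was quantile-normalised over 60305 non-control probes, log2 was taken, and 105 outlier spots were set to missing; no spot was saturated (0). The number of arrays limits the precision.

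A probe was kept where 75% or more of some group's arrays read it well above background (41517 probes). All 35 arrays entered fits with limma 3.58.1 in R 4.3.3 (breed plus temperature, or 1 mean per group), adjusted by Benjamini-Hochberg over all kept probes at 0.05. Pen, slaughter day and parents, random terms in the study methods, are not in the labels, so littermates were treated as independent. Scripts were tested on simulated data. Members and lists were chosen with earlier results of these data known.

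Genes were named with values by rule: up to the 10 smallest p in each direction for temperature, up to 5 for other contrasts, the stalk genes, RPSA, RPS6, RPL3, RPL3L, paralogs, the top 2 called in each direction of other lists, and called members with disagreeing probes. Of 284 member probes, 175 matched a RefSeq accession and 160 had the same symbol. Alternatives were 75th percentile, median and spike-in scaling, the processed signal, normexp (offset 50), the deposited table, filters, slide, brightness and marker covariates, array weights, all probes averaged, no breed term, and leaving out each array. Slides alone and the connective tissue covariate were added after seeing the data. Lists for muscle, adipocyte, blood, endothelial, nerve and satellite cells and for RNA polymerase I were also counted. Some genes that these rules take are not reported here by name, but count in the totals.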

Additional observations from a re-analysis of the deposited data

Results flagged for a closer look

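Of 150 group values tested for a single distant array, 12 stood apart, and chance gives about 1 in 20. The mean of the members was -0.10 on Creole TN replicate 1 (nearest -0.06), where RPL36AL was also low at 14.26 (nearest 14.57). LW TN replicate 6 was high for RPS20 (18.34, nearest 18.11), RPS4 (16.04, nearest 15.69) and RPS19BP1 (11.74, nearest 11.24). F1 HS replicate 5 was high for RPL22 (16.26, nearest 16.07) and low for RPS6 (16.28, nearest 16.78). RPL13AP3 was low on F1 HS replicate 1 (9.21), RPLP0 low on LW TN replicate 1 (12.65) and RPLP1 high on F1 TN replicate 6 (18.97). RPL7L1 was high on Creole TN replicate 2 (13.62) and F1 TN replicate 2 (14.19).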

How the results depend on the processing

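The 40 members called for temperature became 4 with 75th percentile scaling, 23 with median scaling, 20 with spike-in scaling, 2 in the processed signal, 18, 14 and 6 with brightness, leukocyte and connective tissue covariates and 0 on slides 1, 2 and 5 alone, and 33 to 48 with 1 array left out. The median of 0.14 became 0.031 with 75th percentile scaling and 0.020 in the processed signal (0.13 to 0.15 with 1 array left out). In Creole the 7 became 1 with median scaling, 3 without a filter or with a slide block, and 0 with the other scalings, the processed signal, each covariate and each set of slides (0 to 9 with 1 array left out). In F1 array weights gave 7 (0 with each array left out). In LW spike-in scaling gave 1 and a slide block or weights 2 (0 to 4, the latter without LW TN replicate 6). For Creole minus LW the 0 became 1 with normexp, weights or slides 1, 2 and 5 alone, 2 with 75th percentile scaling or brightness, 3 in the processed signal, with a slide block or all probes averaged, and 6 with the leukocyte covariate (0 to 3, the latter without LW TN replicate 6). The other breed contrasts gave 1 with the leukocyte covariate, and F1 minus LW also with weights (0 to 1, the latter for F1 minus Creole without LW TN replicate 1). The interaction stayed at 0. Shares of all probes called were not counted in any of these settings.

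Of the values of single genes, 309 kept direction and side of the threshold, 73 lost the call, 8 gained it and 18 reversed. Reversed with 75th percentile scaling were RPLP1 (-0.15), RPLP2 (-0.011), RPS6 (-0.068) and RPL10L (-0.0015). With median scaling RPLP1 was -0.076. In the processed signal RPLP0 was -0.0038, RPLP1 -0.15, RPLP2 -0.025, RPS6 -0.088 and RPL10L -0.026. With the leukocyte covariate RPLP2 was -0.0069, RPSA -0.0033, RPL3 -0.023, RPL3L -0.033, RPL7L1 -0.079, RPL22L1 -0.0012 and RPS19BP1 -0.059. RPS6 was -0.079 on slides 3 and 4 alone. The causes were not tested. Of the 39 increased genes, 31 were called with each array left out (RPL3, RPL3L, RPL14, RPL30, RPL38, RPS12, RPS13 and RPS28 were not), 28 were above 0 in each alternative and 0 were called in each. No paired analysis was possible because the labels give no replicate numbers.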

Other observations

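Among the other lists, 2 of 5 measured satellite cell markers were called higher and 1 lower under heat stress, 1 of 8 nerve markers was called higher, 1 of 7 endothelial markers and 2 of 3 blood cell markers were called lower, and 0 of 8 adipocyte markers was called. With spike-in scaling 0 satellite cell markers were called lower, 1 endothelial marker was called higher and 0 lower, and 1 blood cell marker was called lower. With 75th percentile scaling, where the median of all probes was itself -0.08, 1 nerve marker was called lower. Of 10 genes for RNA polymerase I and its factors, POLR1D was called higher (0.27) and POLR2F lower (-0.15), while 0 were called higher and 3 lower with 75th percentile scaling.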
